A study of Mus musculus with 27 samples.

Results

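The chaperonin CCT, also called TRiC, is described here through the mRNA of its subunits in mouse kidneys after ischemia and reperfusion. Its members were taken by symbol from the expression table: Tcp1, Cct2, Cct3, Cct4, Cct5, Cct6a, Cct7 and Cct8, which are 8 of the 19392 genes in the table, and all 8 passed the filter on low values that left 18188 genes for testing. CCT is a cytosolic folding machine built as a double ring, in which each ring holds 1 copy of each of the 8 subunits. Unfolded proteins enter the ring, are closed in by a lid formed by the subunits themselves and are released folded when ATP has been hydrolysed. Actin and tubulin depend on CCT for folding, and it is known for serving proteins with WD40 propellers, such as G protein beta subunits and the activators of the anaphase-promoting complex. The subunits are not alike: Tcp1, Cct2, Cct4 and Cct5 lie on the side of the ring that uses ATP most strongly, while Cct3, Cct6a and Cct8 use it weakly. Only mRNA was measured, so nothing is said here of the assembled protein.

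The mice were wild-type C57BL/6. In every animal, the 0 min controls included, the right kidney had been removed, and the left renal pedicle was clamped on a 37 °C plate, for 0 min in the sham group and for 16, 18, 20, 22, 24, 26, 28 or 30 min in the others. The left kidney was taken 24 h later for RNA-Seq, with 3 mice at each of the 9 times and 27 kidneys in all. The study asked how the kidney transcriptome changes with ischemia time. Whole kidney tissue was used, so fewer cells of a type and less RNA per cell cannot be told apart, and sham surgery with nephrectomy is the only baseline.

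The values are FPKM, fragments scaled to the length of the transcript and to the mapped fragments of the library. They are scaled per length, which allows subunits to be set side by side. Their sum over all genes ranged from 512453 to 554036 per kidney, and read depth is unknown. A gene was called when the Benjamini-Hochberg adjusted p from limma was under 0.05 over all tested genes, and a DEG also had to change by more than 1 on the log2 scale. Fold changes are given on the quantile normalized log2(FPKM + 1) scale. The scaling mattered for the balance of calls over all genes. At 28 min against 0 min 4460 genes were called higher and 4301 lower, while 5600 and 3186 were called without quantile normalization and 5472 and 3212 after rescaling to a constant sum. At 30 min against 0 min the numbers were 4895 and 4616, against 5899 and 3715 without quantile normalization. At 26 min against 0 min they were 2702 and 2769, against 4070 and 1700, and over 16 to 24 min 1715 to 2465 genes were called higher and 1748 to 2800 lower, against 2882 to 3804 and 1009 to 1668. For 28 min against 26 min, 1957 genes were called higher and 1550 lower, against 1535 and 1847 after rescaling.

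The labelled tissue was checked by the markers of kidney cell types. For some lists the sum over the markers is given in FPKM. The 6 proximal tubule markers summed to 4181 to 4681 in the controls, to 2857 to 3970 after 26 min, to 1722 to 1915 after 28 min and to 1031 to 1226 after 30 min, and 5 of the 6 were called lower at 30 min against 0 min. Both thick ascending limb and both distal convoluted tubule markers were called lower at 28 min and 30 min. Of the 4 collecting duct markers 2 were called lower at 28 min and 1 at 30 min. The sums at 30 min overlapped with the controls for the thick ascending limb (498 to 2176 against 1558 to 1729). They also overlapped for the collecting duct (307 to 665 against 336 to 492). Called higher at 30 min were 1 of 3 podocyte markers, 3 of 4 endothelial markers, 2 of 4 markers of fibroblasts and pericytes, 2 of 6 of macrophages and 2 of 4 of neutrophils. Of all tested genes 26.9% were called higher and 25.4% lower at 30 min, and 24.5% and 23.6% at 28 min. Macrophage markers summed to 56.9 to 68.0 at 0 min and 70.5 to 115 at 30 min, and 1 of 6 was called lower at 30 min. At 28 min 2 of the 6 were called higher and 3 lower. The median log2 fold change of the macrophage list was -0.47 at 28 min and -0.27 at 30 min. Neutrophil markers summed to 4.67 to 9.18 in the controls, 12.1 to 16.6 after 28 min and 16.2 to 25.1 after 30 min. At 28 min 1 of these 4 markers was called higher and 1 lower. Of the fibroblast and pericyte markers 1 was called lower at 30 min, as were 2 of 3 T cell markers, and 0 of 3 B cell markers were called. No marker was at 0 in all 3 kidneys of any group. These shifts ran beside the changes of CCT at 28 min and 30 min, and their part in them was not tested.

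The subunit genes are spread over 8 chromosomes. In GRCm38.p6, Tcp1 is at chr17:12916329-12925067, Cct2 at chr10:117050997-117063852, Cct3 at chr3:88297135-88321766 and Cct4 at chr11:22990593-23003336. Cct5 is at chr15:31590800-31601846, Cct6a at chr5:129787356-129846443, Cct7 at chr6:85451505-85468477 and Cct8 at chr16:87483325-87495869. Since 7 of the 8 genes were called higher together from 26 min on, the bases just upstream of 4 of them are shown, taken from RefSeq on GRCm38.p6: Cct3, Cct5 and Cct7 had the largest fold changes at 28 min, and Cct8 kept nearly the same proportion to the other subunits. Each run holds the 120 bases before the annotated start, 5′ to 3′ on the strand of the gene, with matches to 3 searched motifs in capitals. They are the CCAAT box, an ETS core and a pair of heat shock element units. The intervals are chr3:88297015-88297134 on the plus strand for Cct3, chr6:85451385-85451504 on the plus strand for Cct7, chr15:31601847-31601966 on the minus strand for Cct5 and chr16:87495870-87495989 on the minus strand for Cct8.
Cct3: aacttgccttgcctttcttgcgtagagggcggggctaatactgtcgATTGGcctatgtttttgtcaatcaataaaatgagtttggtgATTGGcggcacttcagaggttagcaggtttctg
Cct7: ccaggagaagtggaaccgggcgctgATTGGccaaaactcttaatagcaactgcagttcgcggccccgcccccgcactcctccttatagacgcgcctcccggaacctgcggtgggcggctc
Cct5: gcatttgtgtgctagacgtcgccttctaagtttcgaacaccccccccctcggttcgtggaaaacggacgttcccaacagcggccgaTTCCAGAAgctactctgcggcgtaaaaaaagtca
Cct8: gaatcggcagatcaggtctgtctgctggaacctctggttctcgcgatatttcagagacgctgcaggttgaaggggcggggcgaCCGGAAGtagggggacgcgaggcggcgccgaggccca

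Of the 8 genes, 7 had an entry in the promoter table, with 9 windows of 250 bases before and 50 after a start, and these were searched on both strands beside all 32851 windows of the table. The CCAAT box, searched as CCAAT or ATTGG, was found for Tcp1, Cct3, Cct6a and Cct7. These were 4 of the 9 member windows, against 37.4% of all windows. The ETS core, searched as CCGGAAG or CTTCCGG, was found for Tcp1, Cct2 and Cct8, in 3 of the 9 windows against 8.86% of all windows. The pair of heat shock element units, searched as GAANNTTC or TTCNNGAA, was found for Cct2, Cct5 and Cct6a. Here too 3 of the 9 windows matched, against 15.1% of all windows. The ETS core and the heat shock pattern can overlap, since both can hold GAA or TTC, but no window of the members held both. No single motif of the 3 was found for all 7 genes, and a match is only a run of letters. In the runs above, the Cct5 match to the heat shock pattern begins 34 bases before the start, the ETS match of Cct8 begins 37 bases before it and the CCAAT matches of Cct3 begin 74 and 33 bases before it.

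All 8 subunits were abundant at every ischemia time. Their values ran from 46.31 to 144.56 FPKM over the 27 kidneys, and by mean FPKM they ranked from 855 (Cct6a) to 1445 (Cct7) among the 19392 genes. At 0 min the order from high to low was Tcp1, Cct6a, Cct2, Cct5, Cct4, Cct8, Cct3 and Cct7, and the highest mean was 1.81 times the lowest. The geometric mean of the 8 subunits in a kidney was 68.3 ± 1.24 FPKM at 0 min (SD, n = 3). Over 16, 18 and 20 min it was 74.5 ± 5.13, 78.0 ± 2.75 and 74.8 ± 5.09 FPKM, and over 22 and 24 min 78.5 ± 4.30 and 82.0 ± 5.85 FPKM. After 26 min it was 86.0 ± 5.33 FPKM, after 28 min 105 ± 2.60 and after 30 min 97.9 ± 9.21. The 3 kidneys at 28 min, at 103 to 108 FPKM, lay above all kidneys of 0 to 26 min, whose highest was 92.1 FPKM, and the 30 min kidneys at 87.7 to 106 FPKM overlapped with both.

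**Figure D1:**
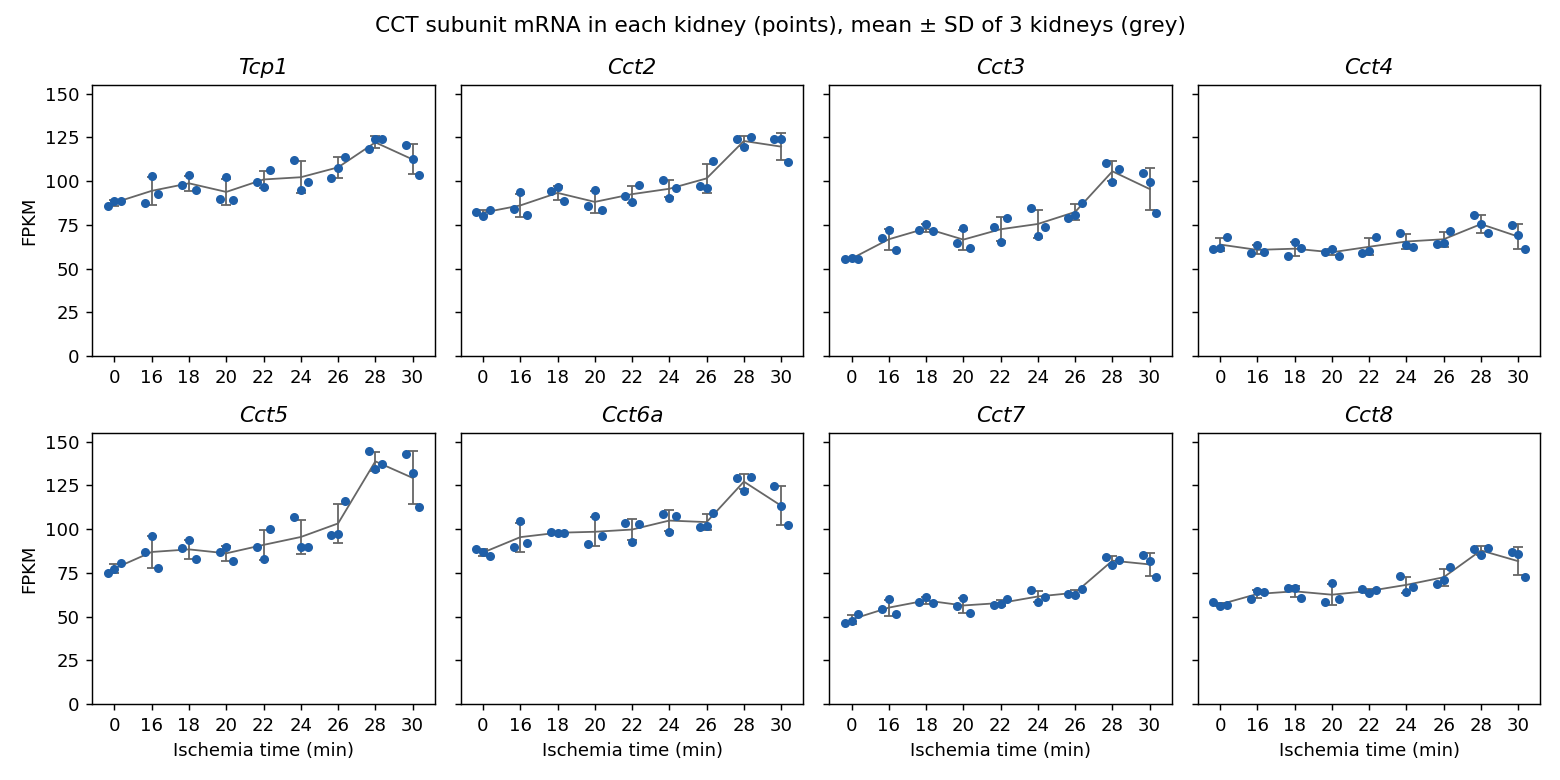
FPKM of each CCT subunit (vertical axis, from 0) against ischemia time in min (horizontal axis, evenly spaced groups). Points are single kidneys, and grey lines join the means with SD bars over 3 kidneys. The highest mean of every subunit is at 28 min, where Cct5 reaches 139 FPKM, while Cct4 stays between 57.4 and 80.6 FPKM in all 27 kidneys.

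Each of the 8 subunits had its highest mean at 28 min. Its lowest mean was at 0 min for 7 of them and at 20 min for Cct4. In the order of the 9 times by mean FPKM, 8 neighbouring pairs can be formed for each subunit, and at most 1 of the 8 was free of overlap. Those pairs were 0 min and 20 min for Tcp1, Cct3 and Cct5, 0 min and 16 min for Cct6a, and 26 min and 30 min for Cct7. All other neighbours overlapped, and so did all of those of Cct2, Cct4 and Cct8. The largest mean was 1.89 times the smallest for Cct3, 1.79 times for Cct5, 1.69 times for Cct7 and 1.27 times for Cct4.

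Between 16 min and 24 min of ischemia few subunits passed the limma test against 0 min. At 16 min 0 of 8 were called higher, against 9.43% of all tested genes, and 1 subunit, Cct3, had an unadjusted p under 0.05. At 18 min Cct3 and Cct7 were called higher, 2 of 8 against 12.6%, with log2 fold changes of 0.29 ± 0.09 (SE) and 0.20 ± 0.06. At 20 min 0 of 8 were called in either direction, against 10.7% of all tested genes called higher and 2193 of 18188 called lower. The only unadjusted p under 0.05 was that of Cct4. It was lower by value, with a log2 fold change of -0.18 and an adjusted p of 0.098. At 22 min Cct3 alone was called higher, 1 of 8 against 13.4%, and at 24 min Cct3, Cct6a and Cct7 were, 3 of 8 against 13.6%. At 16, 20 and 22 min these counts were near the share of all genes, and with 8 subunits no difference from it can be read. At 18 and 24 min they were above it by about 1 and 2 subunits. The counts moved with the processing. Without quantile normalization the counts were 1, 4 and 7 for 20, 22 and 24 min, and rescaling to a constant sum gave 2 at 16 min and 7 at 24 min. Leaving out replicate 2 at 18 min or replicate 3 at 22 min left 0 calls at that time, and leaving out replicate 1 at 24 min left 1. Leaving out replicate 2 at 24 min gave 5 calls instead, replicate 1 or 2 of 0 min left 1 call at 18 min, and replicate 3 of 0 min gave 2 calls at 22 min. The FPKM of 3 of 8 subunits at 16 min, 7 at 18 min, 6 at 20 min and 7 each at 22 min and 24 min lay above 0 min without overlap, against 20.6%, 29.0%, 26.4%, 29.9% and 29.4% of all tested genes. All comparisons with 0 min share the same 3 control kidneys.

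After 26 min of ischemia 7 of the 8 subunits were higher than at 0 min, against 14.9% of all tested genes called higher. Cct3 changed most, with a log2 fold change of 0.49 ± 0.09 (SE, adjusted p from limma 0.000359), and Cct6a least among those called, with 0.24 ± 0.07 (adjusted p from limma 0.0173). Cct4 was the exception, with a log2 fold change of -0.0011 and an adjusted p of 1. The FPKM of 7 of the 8 did not overlap with 0 min, against 29.1% of all tested genes. The median log2 fold change of the 8 subunits was 0.28, against 0.00 for all tested genes. The count rests in part on replicate 3 at 26 min, the kidney with the highest FPKM of all 8 subunits at that time. Without it 4 subunits were called, and Tcp1, Cct5 and Cct6a were not, with adjusted p of 0.0602, 0.0596 and 0.0911. Cct6a was also not called without replicate 3 of 0 min (adjusted p from limma 0.05925). In a fit of these 2 groups alone Cct2 was not called (adjusted p from limma 0.05933).

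After 28 min the same 7 subunits were higher than at 0 min, against 24.5% of all tested genes called higher and 23.6% called lower. The median log2 fold change of the 8 was 0.54. The FPKM of all 8 subunits at 28 min lay above those at 0 min without overlap, against 35.5% of all tested genes. None of the 8 was a DEG, against 4.27% of all tested genes that were DEGs and higher, since the largest change, that of Cct3, was 0.84 on the log2 scale. Cct4 had a log2 fold change of 0.16 ± 0.08 (SE) and an adjusted p of 0.0934. This call depended on the setting, since Cct4 passed without quantile normalization (0.24, adjusted p 0.0131), after rescaling to a constant sum (0.23, adjusted p 0.0221) and without replicate 3 at 28 min (0.22, adjusted p 0.0421).

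After 30 min 7 of the 8 subunits, again without Cct4, were higher than at 0 min, against 26.9% of all tested genes called higher and 25.4% called lower, and the count was 7 whichever kidney was left out. The median log2 fold change was 0.54. None was a DEG, against 5.14% of genes. The FPKM of 7 of the 8 did not overlap with 0 min, against 33.3%. Cct4 had a log2 fold change of 0.08 ± 0.08 (SE, adjusted p from limma 0.451).

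**Figure D2:**
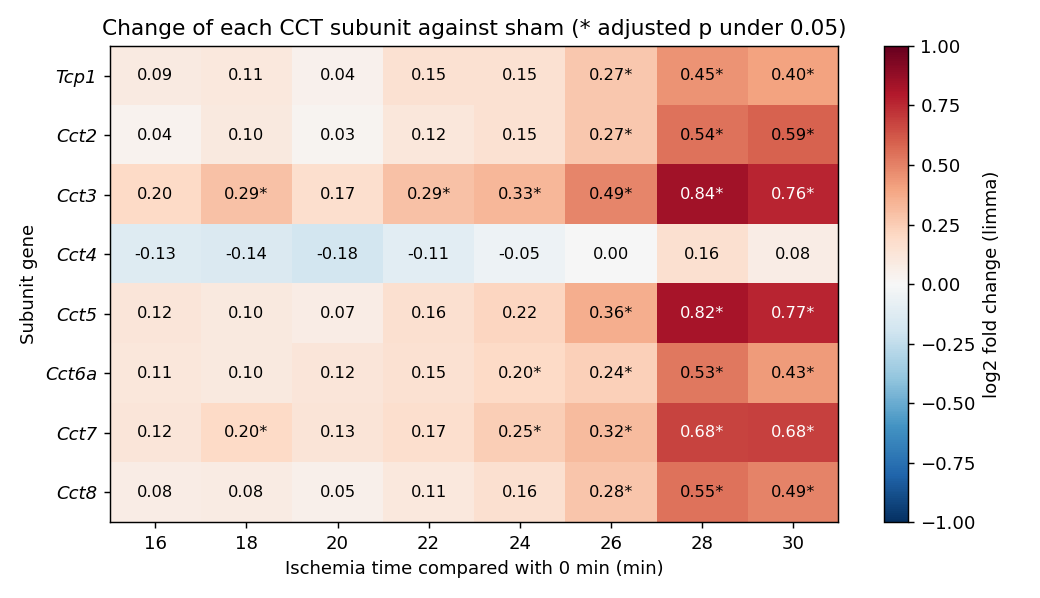
Heat map of the log2 fold change from limma of each CCT subunit (rows) at each ischemia time in min against 0 min (columns). The colour scale runs from -1 (blue) to 1 (red), and an asterisk marks an adjusted p under 0.05. At 26, 28 and 30 min 7 of 8 subunits carry an asterisk, and Cct4 carries none at any time.

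The largest step of the geometric mean between neighbouring times lay between 26 min and 28 min. Here 6 of the 8 subunits were called higher at 28 min than at 26 min, against 10.8% of all tested genes, and the FPKM of 7 of the 8 did not overlap, against 20.0%. These 2 groups share no kidneys. Cct5 changed most (log2 fold change 0.46 ± 0.10 SE, adjusted p from limma 0.00273), followed by Cct7 with 0.36 ± 0.06 and Cct3 with 0.36 ± 0.09. Tcp1 and Cct4 were not called, with log2 fold changes of 0.17 and 0.16 and adjusted p of 0.123 and 0.157. Without replicate 1 at 26 min Cct2 and Cct8 were not called either, with adjusted p of 0.0510 and 0.0652, which left 4 of 8. Cct2 was also not called in a fit of these 2 groups alone (adjusted p from limma 0.0673). Between 28 min and 30 min 0 subunits were called in either direction, and 0 had an unadjusted p under 0.05. Of all 18188 tested genes 6.47% were called higher at 30 min, and 1231 were called lower. The medians of the 8 subunits were 0.28 for 28 min against 26 min and -0.05 for 30 min against 28 min. Between 16 min and 26 min 0 subunits were called, but 0% of all tested genes were called higher in that comparison too, while 6 of the 8 subunits had an unadjusted p under 0.05 in limma and the lowest adjusted p was 0.321.

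Among the subunits that use ATP weakly, Cct3, the gamma subunit, had the largest change. Its FPKM was 55.4, 56.1 and 55.8 in the 3 controls. After 26 min it was 78.8, 80.7 and 87.8, after 28 min 111, 99.5 and 107, and after 30 min 105, 99.8 and 82.1. The lowest ischemic kidney, at 16 min, had 60.6 FPKM, so that all 24 ischemic kidneys were above the 3 controls. The log2 fold change was 0.84 ± 0.09 (SE, adjusted p from limma 2.05e-07) at 28 min and 0.76 ± 0.09 at 30 min. Cct8, the theta subunit, had 58.1, 56.2 and 56.8 FPKM in the controls, 68.8, 70.7 and 78.2 after 26 min, 89.0, 85.2 and 89.5 after 28 min and 86.9, 85.8 and 72.6 after 30 min. All 3 of these ischemia times were above the controls, with log2 fold changes of 0.28 ± 0.07, 0.55 ± 0.07 and 0.49 ± 0.07. Cct6a, the zeta subunit, ran from 84.7 to 88.6 FPKM in the controls, from 122 to 130.1 after 28 min and from 102 to 125 after 30 min, and its log2 fold changes were 0.53 ± 0.07 and 0.43 ± 0.07 at the last 2 times. Cct7, the eta subunit, lies between Cct8 and Cct5 in the ring and was the lowest of the 8 up to 26 min. It had 46.3, 47.6 and 51.5 FPKM in the controls, 63.2, 62.1 and 65.7 after 26 min, 84.1, 79.4 and 82.6 after 28 min and 85.6, 81.7 and 72.4 after 30 min. Cct7 had the lowest adjusted p of the 8 subunits at both 28 min (6.7e-08) and 30 min (2.51e-08) in limma, with a log2 fold change of 0.68 ± 0.06 at each.

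Among the subunits on the side that uses ATP strongly were both Cct5, with a fold change close to that of Cct3, and Cct4, with the smallest of the 8. Cct5, the epsilon subunit, had 74.9, 77.4 and 80.5 FPKM in the controls, 96.9, 97.0 and 116 after 26 min, 145, 134 and 137 after 28 min and 143, 132 and 113 after 30 min. The 28 min kidneys lay above all kidneys of 0 to 26 min, and the lowest 30 min kidney fell below the highest 26 min kidney. Its log2 fold change was 0.82 ± 0.10 (SE, adjusted p from limma 1.01e-06) at 28 min and 0.77 ± 0.10 at 30 min. Cct4, the delta subunit, had 61.4, 62.0 and 68.0 FPKM in the controls, 64.3, 64.6 and 71.7 after 26 min, 80.6, 75.3 and 70.5 after 28 min and 75.0, 69.0 and 61.0 after 30 min. Of these 3 ischemia times only 28 min was clear of the controls, and the 30 min kidneys spanned their whole range. Tcp1, the alpha subunit for which the complex was first named, ran from 85.6 to 88.8 FPKM in the controls, 118 to 124 after 28 min and 104 to 121 after 30 min, with log2 fold changes of 0.45 ± 0.08 and 0.40 ± 0.08. Cct2, the beta subunit, ran from 80.3 to 83.4 FPKM in the controls, 119.6 to 125 after 28 min and 111 to 124 after 30 min, with log2 fold changes of 0.54 ± 0.07 and 0.59 ± 0.07.

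The subunits did not change in equal proportion. Each was set against the geometric mean of the 8 in the same kidney, a log2 ratio in which the scaling of the kidney cancels. The 8 ratios of a kidney sum to 0, so a fall of 1 subunit by itself raises the ratios of the others. These ratios are a description and were not tested. Cct4 had a ratio of -0.10 ± 0.06 (SD, n = 3) at 0 min, with kidneys from -0.14 to -0.04, and all 24 ischemic kidneys lay below that range, between -0.58 and -0.25. Its mean was -0.29 ± 0.04 after 16 min, -0.36 ± 0.0043 after 26 min, -0.48 ± 0.09 after 28 min and -0.52 ± 0.02 after 30 min, so that it was lower at the shortest time already and lower still at the longest. Cct3 moved the other way, from -0.29 ± 0.03 at 0 min to -0.16 ± 0.06 at 16 min and -0.04 ± 0.05 at 30 min, and all 24 ischemic kidneys lay above the controls. Cct5 and Cct7 also stood higher. Cct5 had a ratio of 0.18 ± 0.03 at 0 min and 0.40 ± 0.04 at 30 min, and Cct7 of -0.50 ± 0.05 and -0.29 ± 0.01, and in both all 6 kidneys of 28 min and 30 min were above the control range. Of the 18 kidneys of 16 to 26 min, 10 were above it and 2 below for Cct5, and 12 above and 0 below for Cct7. The mean ratio of Cct5 at 18 min was 0.18, as at 0 min, and the control range rests on only 3 kidneys. Tcp1 went from 0.36 ± 0.03 to 0.20 ± 0.03, with 6 of 6 kidneys below the controls, and Cct6a from 0.34 ± 0.06 to 0.21 ± 0.03, with 5 of 6 below. Cct8 kept its ratio, -0.26 ± 0.04 at 0 min and -0.26 ± 0.03 at 30 min, with 0 of 6 kidneys below the controls. Cct2 had 0.26 ± 0.02 and 0.29 ± 0.06, and of the 3 kidneys at 30 min 2 were above and 1 below the controls. At 16 to 26 min 13 of 18 kidneys were below the controls for Cct2, and at 28 min 2 of 3, with 0 above.

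**Figure D3:**
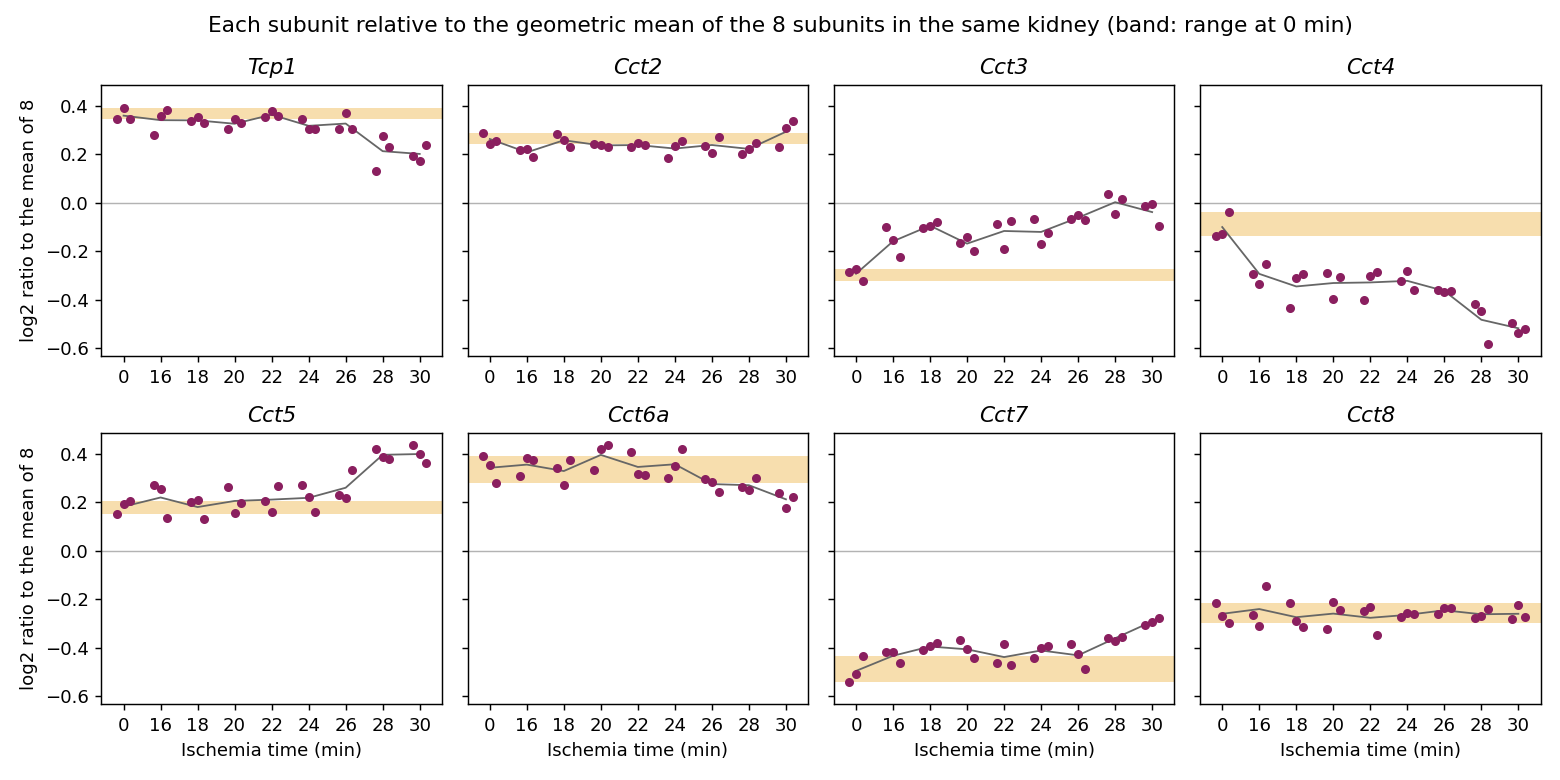
The log2 ratio of each CCT subunit to the geometric mean of the 8 subunits in the same kidney (vertical axis) against ischemia time in min (horizontal axis). Points are single kidneys, the line joins the means, and the band is the range of the 3 kidneys at 0 min. Cct4 lies below its band and Cct3 above its band in 24 of 24 ischemic kidneys, while Cct8 stays around its own.

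The order of the subunits changed with these shifts. Up to 26 min Tcp1 or Cct6a had the highest mean and Cct7 the lowest, while at 28 min and 30 min Cct5 had the highest and Cct4 the lowest. The ratio of the highest to the lowest mean stayed between 1.67 and 1.89 at all 9 times. Within a group, the subunits of a kidney tended to stand high or low together. A single kidney held the highest FPKM of all 8 subunits in the groups of 16 min (replicate 2), 20 min (replicate 2), 24 min (replicate 1), 26 min (replicate 3) and 30 min (replicate 1), and replicate 3 at 30 min had the lowest of all 8. At 0 min the highest values were spread over the 3 kidneys, with at most 4 of 8 in 1 kidney. FPKM of 1 kidney share its library and scaling, and their part in this order was not tested.

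The cofactors that work with CCT were listed next. Beside their counts, 24.5% of all tested genes were called higher and 23.6% lower at 28 min, and 26.9% and 25.4% at 30 min. Prefoldin carries newly made actin and tubulin to the ring, and 4 of its 6 subunits were called higher at 28 min and 4 at 30 min, with 0 lower and medians of 0.36 and 0.33. Pfdn4 was at 10.1 to 12.7 FPKM at 0 min and 13.6 to 19.5 at 30 min (log2 fold change 0.47 ± 0.12 SE, adjusted p from limma 0.00339), and Pfdn6 changed by 0.37 ± 0.10. Of the phosducin-like proteins, which bind CCT and modulate its action, 3 of 4 were in the table, and 2 of the 3 were called higher at 30 min, Pdcl3 (0.31 ± 0.06) and Txndc9 (0.20 ± 0.07). That count was 0 at 28 min without replicate 2 of 0 min or without replicate 2 of 28 min, and 1 at 30 min without replicate 1 or 2 of 0 min or replicate 1 of 30 min. The cofactors that assemble tubulin dimers after CCT has released the monomers were called higher in 4 of 6 cases at 28 min and 5 of 6 at 30 min, with 0 lower. Tbcb, which acts on alpha-tubulin, went from 41.3 ± 2.91 to 73.4 ± 6.73 FPKM (SD, n = 3 each) at 30 min, a log2 fold change of 0.79 ± 0.08 (SE), and Tbcd, which acts on beta-tubulin, changed by 0.54 ± 0.08.

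The tubulins, which fold on CCT, were called higher in 11 of 14 cases at both 28 min and 30 min, with 0 lower and medians of 1.16 and 1.59. Of all tested genes 24.5% and 26.9% were called higher at those times, and 9.43% at 16 min and 14.9% at 26 min. At 16 min already 12 of the 14 were called higher, where 0 of 8 CCT subunits were, and at 26 min 12 were. Whether tubulins and CCT subunits differ in this respect was not tested. Tuba1a was at 24.0 ± 3.57 FPKM at 0 min and 169.8 ± 55.5 at 30 min (log2 fold change 2.77 ± 0.21 SE, adjusted p from limma 1.44e-09), and Tubb2b at 9.71 ± 1.86 and 63.5 ± 10.7 (2.53 ± 0.22 SE). Of the 6 actins 3 were called higher at 28 min and 4 at 30 min, with 0 lower. Actb and Actg1, the most abundant of them, are named here after their values were seen. Their log2 fold changes at 30 min were 1.11 ± 0.11 (SE) and 0.85 ± 0.07. Acta2, the smooth muscle actin, had 8.69, 8.66 and 11.6 FPKM at 0 min and 68.8, 48.7 and 177 at 30 min, and its log2 fold change was 2.999 ± 0.37. Actg2, another smooth muscle actin, had 11.3, 0.31 and 0.83 FPKM at 30 min against 0.05, 0.00 and 0.48 at 0 min, so that 1 kidney held most of the change and the groups overlapped (1.38 ± 0.49, adjusted p from limma 0.0241). The tubulin and actin genes include close paralogs whose reads the counting may have split.

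The other known substrates moved in both directions. Of 14, 4 were called higher and 4 lower at 28 min, and 4 and 3 at 30 min, which is near the shares of all tested genes given above, while without quantile normalization 9 were higher and 2 lower at 28 min and 8 were higher at 30 min. Gnb1 and Gnb2, G protein beta subunits with WD40 propellers, rose from 58.4 ± 2.02 to 122 ± 1.30 and from 99.3 ± 6.26 to 176.5 ± 4.28 FPKM at 30 min, with log2 fold changes of 1.08 ± 0.06 and 0.94 ± 0.07. Gnb4, a further G protein beta subunit that is named here after its values were seen, fell by 0.33 (adjusted p from limma 0.000979). Gnb5, named likewise, fell by 0.21 at 28 min and was not called at 30 min. Bbs2, a component of the BBSome of the primary cilium, fell by 0.88 on the log2 scale, and Vhl, the tumour suppressor that marks HIF for destruction, by 0.35. Bbs7, a further BBSome component named after its values were seen, was called at neither time (0.28 at 28 min, -0.03 at 30 min). The chaperonin-like proteins that help build the BBSome were lower at 30 min, together with Cct6b, a paralog of Cct6a that is known from testis. Of these 4 genes 3 were called lower at 28 min and 4 at 30 min, or 2 at 30 min in a fit of those groups alone. Bbs12 was the gene not called at 28 min, and its FPKM overlapped with 0 min at both 28 min and 30 min. The shares of all tested genes called lower were 23.6% at 28 min and 25.4% at 30 min. Cct6b was at 0.93, 0.86 and 0.62 FPKM at 0 min and 0.13, 0.17 and 0.00 at 30 min, with a log2 fold change of -0.83, and Bbs10 was at 1.92 ± 0.49 and 1.13 ± 0.29 FPKM, with -0.57. Cct8l1, a further relative, was at 0 in 19 of 27 kidneys and never above 0.06 FPKM.

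The other chaperones moved in both directions or were not called. In the mitochondrial chaperonin, made of Hspd1 and Hspe1, 1 of the 2 genes was called higher at 28 min and 0 at 30 min, or 1 at 30 min without replicate 3. Of 14 cytosolic chaperones and regulators of the heat shock response, 6 were called higher and 1 lower at 28 min, and 5 and 2 at 30 min, against 10 and 8 higher without quantile normalization. The shares of all tested genes called higher were 24.5% at 28 min and 26.9% at 30 min, and called lower 23.6% and 25.4%. Hspb1, a small heat shock protein, was at 16.2, 13.4 and 21.4 FPKM at 0 min and 147, 191 and 191 at 30 min, a log2 fold change of 3.36 ± 0.42 (SE). Hspa1a, an inducible Hsp70, changed by 2.29 ± 0.27, and its reads are hard to separate from those of its copy Hspa1b. The constitutive Hspa8 fell by 0.58 on the log2 scale with overlapping groups, and its co-chaperone Dnaja1 fell by 0.63. Cell cycle markers were called higher in 10 of 10 cases at 28 min and 3 of 10 at 30 min, or 1 without replicate 1 of 30 min. Mcm5 and Mcm2, helicase subunits of DNA replication, changed by 0.94 ± 0.35 and 0.91 ± 0.26 at 30 min. The injury markers Havcr1 (KIM-1) and Lcn2 (NGAL) changed by 7.06 ± 0.74 and 6.30 ± 0.78.

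**Figure D4:**
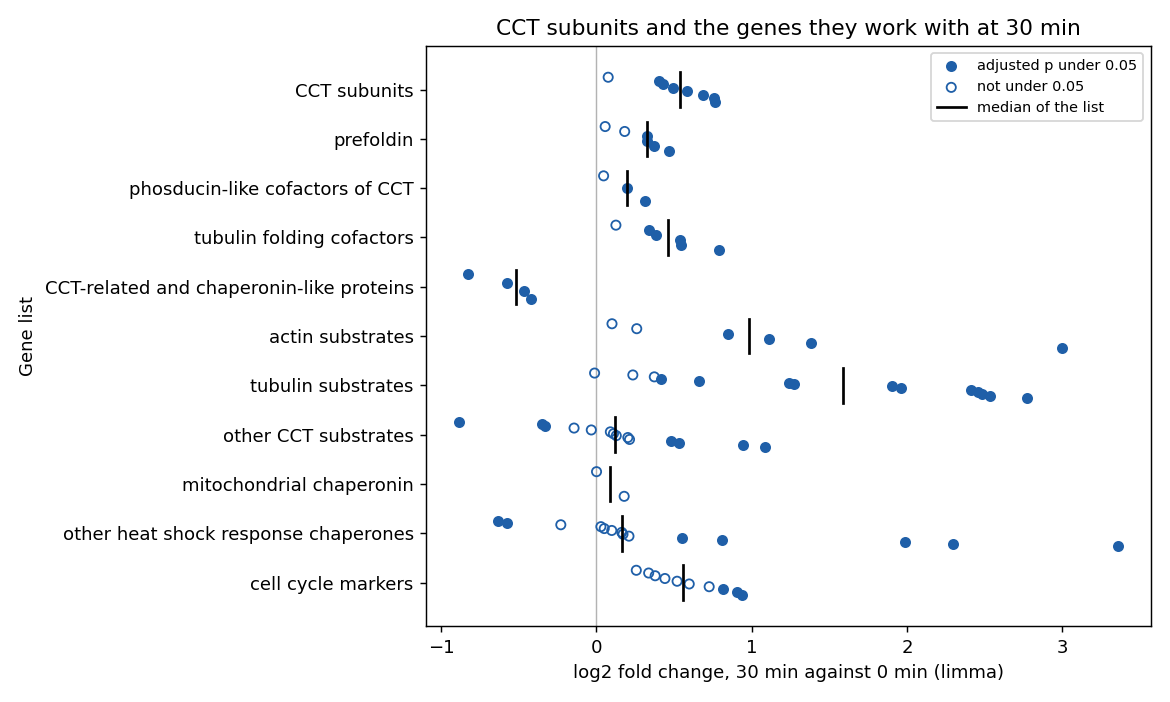
The log2 fold change from limma at 30 min against 0 min (horizontal axis) of each CCT subunit and of the genes of 10 lists (vertical axis, 1 row a list). Filled points have an adjusted p under 0.05, open points do not, and the bar is the median of the list. The CCT subunits lie between 0.08 and 0.77, the tubulins reach 2.77, and the 4 CCT-related and chaperonin-like genes are all below 0.

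The genes outside CCT whose pattern over the 27 kidneys was most like that of the 8 subunits were looked for among 12338 genes with a mean of at least 1 FPKM. The measure was Pearson's r with the mean of the standardized subunits, given as a description, since the points share libraries, scaling and ischemia times. The closest were Hnrnpf, an RNA-binding splicing factor (r = 0.973), Steap2, a metalloreductase (0.9725), Rars, the arginyl-tRNA synthetase (0.971), Eif2s1, the alpha subunit of the initiation factor eIF2 (0.962), and Eif3c, a subunit of eIF3 (0.962). Hnrnpf was at 113 FPKM in the controls, 147 after 26 min, 201 after 28 min and 173 after 30 min. Eif3c was at 68.3, 90.9, 108 and 107 FPKM at those times. In all 5 the mean was higher at 28 min than at 26 min and lower again at 30 min. The subunits have this shape and the genes were picked for likeness to them, so it is no separate observation.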

How the data were processed

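RNA-Seq of whole left kidneys was done by the authors on the DNBSEQ platform, with 3 mice at each of 9 ischemia times. The authors deposited FPKM for each gene symbol in each kidney, given to 2 decimals. The submitters' processing notes name Bowtie2, RSEM and GRCm38.p6 without a role, and they also name DESeq2. Reads are not counted in this unit, so precision was judged from the 3 mice per group alone. Groups were taken from the labels, and all 27 columns were used. Values were taken as log2(FPKM + 1), then quantile normalized. The model had 1 mean per time and was fitted with limma 3.58.1 (R 4.3.3) on genes above 0 FPKM in at least 3 kidneys, and p-values were adjusted by Benjamini-Hochberg over all 18188 genes in each of 11 comparisons. Tested on simulated data for 28 min against 0 min, the fit recovered 198 of 200 planted log2 changes of 2. The largest change of a subunit was 0.84, so this does not show how often changes of that size are found. The lists held 11 pathway groups and 11 cell types. From each pathway list up to 2 called genes with the largest increase and up to 2 with the largest decrease at 30 min were named, beside all 8 members, both injury markers and the 5 genes most like the members. The members and lists were chosen with earlier results of these data known. Alternatives were another pseudocount (0.1), other scalings, other filters, a trend, a replicate block, a fit of 2 groups and leaving out each kidney. Promoters were read from RefSeq tables on GRCm38.p6 with Python 3.11.15 and pandas 2.3.3, and figures were drawn with matplotlib 3.10.9.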

Additional observations from a re-analysis of the deposited data

How the results depend on the processing

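Of 154 recomputed counts of called subunits 137 stayed within 1.5 times the reported count. Without quantile normalization the counts against 0 min were 1, 4 and 7 for 20, 22 and 24 min. Rescaling FPKM to a constant sum gave 2, 1, 3 and 7 for 16, 20, 22 and 24 min, and a fit of the 2 compared groups alone gave 3 at 22 min and 1 at 24 min. Leaving out 1 kidney gave 0 to 2 calls for 18 min and for 22 min, 1 to 5 for 24 min, 4 to 7 for 26 min, 7 to 8 for 28 min, 7 throughout for 30 min, and 4 to 6 for 28 min against 26 min. The log2 fold change of Cct4 at 26 min against 0 min turned from -0.0011 to 0.066 without quantile normalization, to 0.096 after rescaling and to 0.039, 0.036 and 0.017 without replicate 3 of 0 min, replicate 1 or replicate 2 of 26 min, with adjusted p from 0.394 to 0.938 in limma. Over all left-out kidneys it ran from -0.057 to 0.039. Of the other fold changes recomputed for 26, 28 and 30 min against 0 min and 28 min against 26 min, 8 lost and 3 gained a call, and 432 kept both direction and call. Outside these comparisons, Cct4 at 24 min against 0 min turned from -0.05 to 0.04 without quantile normalization, and at 30 min against 28 min Cct2 turned from 0.04 to -0.04 and Cct7 from 0.0089 to -0.04, none of them called in the reported fit. The cause was not tested. With the replicate number as a block 7 subunits were called for each of 26, 28 and 30 min, and 2 in place of 3 at 24 min. The numbers did not pair the mice, since same-numbered kidneys at different times had a median correlation of -0.01, over 0.1 in 25 of 108 pairs, and 8 of 27 kidneys correlated best with their own number. Depth is unknown, and with 3 mice a group an exact permutation test cannot go below a p of 0.1.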
